A study of Mus musculus with 6 samples.

Results

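The genes described here are 32 regulators, receptors, surface proteins and skeleton proteins of the red cell lineage, measured in the skull roof of mice carrying a collagen X transgene. They were chosen by name. Of the 32, 29 had a probe set (a group of short probes for one transcript) annotated with that gene symbol alone, out of 18193 genes on the whole array with such a probe set, and the brightest such probe set stood for each gene. Epb41, Ahsp and Trim58 were not analysed here. The animals were 10 days old, and the comparison set 13del-tg mice, which express a mutated Col10a1 transgene and are described by the submitters as having overgrown bone, against wild-type littermates, called control. The transgene's promoter is not given in the sources used here, and the labels do not say whether littermates share a replicate number. RNA came from cryosections of parietal bone, so each sample mixes bone, marrow and whatever soft tissue lay in the section.

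The labels give 3 biological replicates of each genotype, but the columns deposited as 13del-tg 1 and control 1 held the same value for 45101 of 45101 probe sets. That array cannot belong to both genotypes. Its values are given apart, as the shared array, and the comparison is of 13del-tg 2 and 3 with controls 2 and 3 (n = 2 each). Col10a1, the gene of the transgene, had intensities of 15688.7 and 11584.4 in 13del-tg 2 and 3, against 149.8 and 158.2 in controls 2 and 3, and 152.2 on the shared array, which goes against that array's 13del-tg label. The trimmed mean intensity was 500.003 on every array, a common scale, and with 2 arrays per group the number of arrays limits the precision. Of 12859 genes tested, 6 (0.0467%) were lower and 2 (0.0156%) higher in 13del-tg at a limma adjusted p under 0.05, and the median log2 difference over all genes was -0.074.

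Red cells arise in marrow from progenitors that respond to erythropoietin. The transcription factors GATA1, TAL1, KLF1 and NF-E2 switch on the genes of hemoglobin, heme, iron uptake and the red cell surface as the cells mature. The mature membrane is held by a spectrin and actin skeleton that ankyrin, adducin, dematin and related proteins fasten to the anion exchanger and to the Rh complex. The skull roof of young mice holds such marrow in its growing bone.

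Most of the erythroid genes were lower on both 13del-tg arrays. Of the 29 measured, 25 had both 13del-tg values below both control values, where 26.3% of all genes did, and none had both above (13.4% of all genes). The log2 difference, 13del-tg minus control, was negative for 26 genes (58.8% of all genes), and its median was -1.68, against -0.074 over all genes. It was below -1 for 21 genes (2.43% of all genes). No gene of the group passed at an adjusted p under 0.05, and 24 were lower at an unadjusted limma p under 0.05 (5.31% of all genes), with 0 higher (1.49%). These counts include Epb42, whose 13del-tg signals both lay under the level of the low-signal filter. Set at the 60th percentile, that filter dropped Epb42 and left 10133 genes. Then 24 of 28 erythroid genes had both 13del-tg values below both control values, where 24.7% of the 10133 did. Of the 28, 23 were lower at an unadjusted limma p under 0.05 (4.91% of the 10133), and the median difference of the 28 was -1.66. In these bulk samples fewer erythroid cells and less RNA per cell cannot be told apart. An exact two-sided permutation test of 2 arrays against 2 cannot go below p = 0.333, the value it gave for each of the 25 separated genes.

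**Figure D1:**
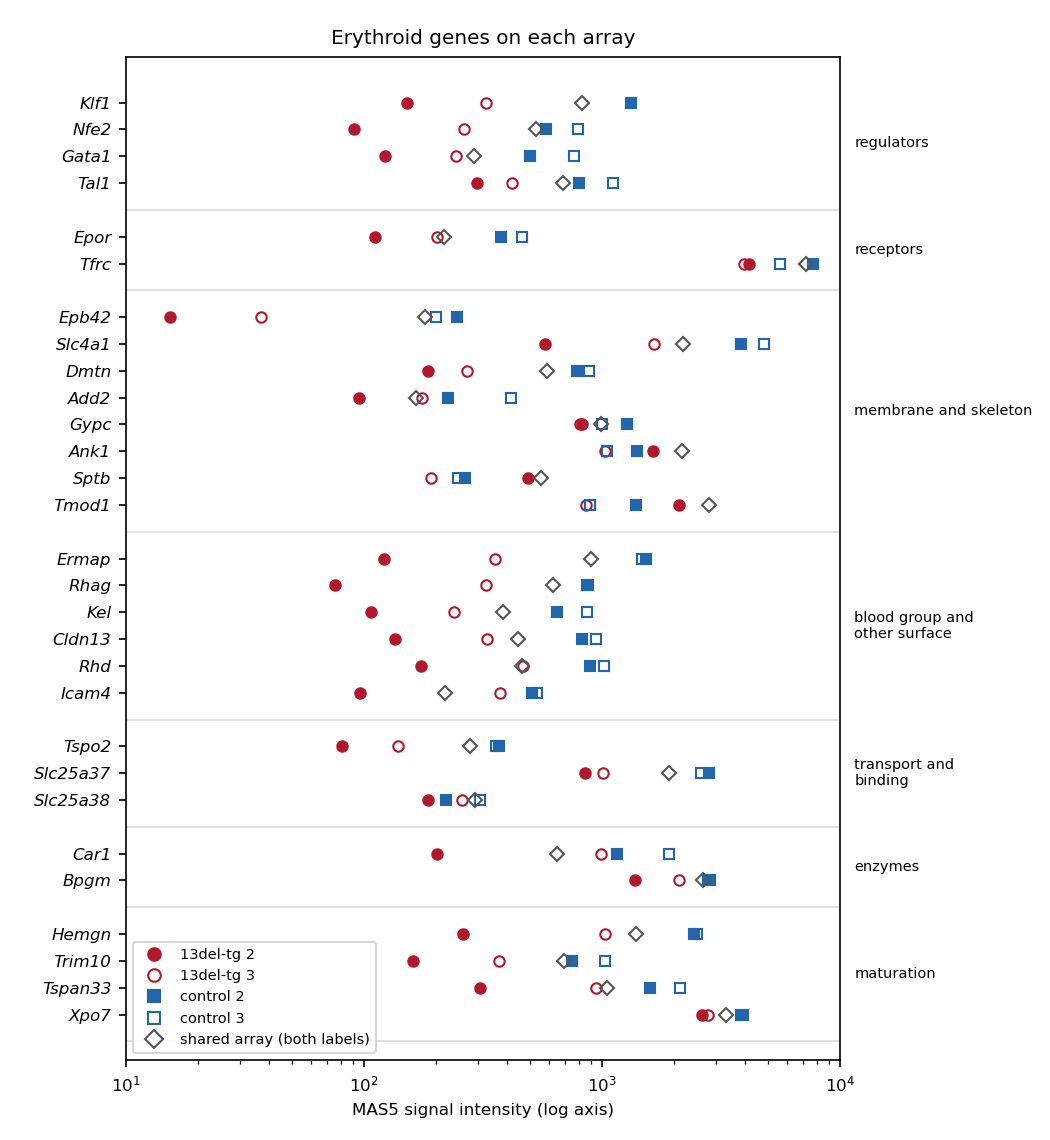
MAS5 signal intensity (log axis) of the 29 erythroid genes on each array, by role. Red circles are 13del-tg 2 (filled) and 3 (open), blue squares are control 2 (filled) and 3 (open), and grey diamonds are the shared array, and 25 genes have both red circles left of both blue squares.

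Upstream sequences are shown for members of 4 roles that were lower together and that hold the letters AGATAA, a form of the site bound by GATA factors. They are a regulator, a cytokine receptor, a membrane protein and a blood group protein. Each is the 250 bases before an annotated start, 5′ to 3′ on the gene's strand, from RefSeq on GRCm38.p6. Tal1 has 2 such sequences, and the one shown was picked because it holds AGATAA. Capitals mark AGATAA on either strand (TTATCT on the other) and CCNCNCCC, the kind of box bound by KLF factors, on either strand.
Tal1, chr4:115056176-115056425, + strand: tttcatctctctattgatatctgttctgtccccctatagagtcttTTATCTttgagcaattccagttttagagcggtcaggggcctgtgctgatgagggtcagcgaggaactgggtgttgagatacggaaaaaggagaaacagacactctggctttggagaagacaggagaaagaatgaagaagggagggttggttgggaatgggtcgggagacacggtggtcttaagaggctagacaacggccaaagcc
Epor, chr9:21963577-21963826, - strand: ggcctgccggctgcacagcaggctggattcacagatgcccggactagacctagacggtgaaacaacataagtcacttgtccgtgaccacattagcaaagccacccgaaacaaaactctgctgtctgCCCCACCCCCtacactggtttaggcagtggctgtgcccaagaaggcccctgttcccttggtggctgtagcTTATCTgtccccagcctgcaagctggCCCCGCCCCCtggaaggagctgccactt
Epb42, chr2:121036878-121037127, - strand: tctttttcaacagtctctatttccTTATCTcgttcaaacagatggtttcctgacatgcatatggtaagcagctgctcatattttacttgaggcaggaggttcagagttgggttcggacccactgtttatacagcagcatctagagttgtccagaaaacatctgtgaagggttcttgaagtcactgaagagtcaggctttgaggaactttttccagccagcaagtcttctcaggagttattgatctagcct
Kel, chr6:41704326-41704575, - strand: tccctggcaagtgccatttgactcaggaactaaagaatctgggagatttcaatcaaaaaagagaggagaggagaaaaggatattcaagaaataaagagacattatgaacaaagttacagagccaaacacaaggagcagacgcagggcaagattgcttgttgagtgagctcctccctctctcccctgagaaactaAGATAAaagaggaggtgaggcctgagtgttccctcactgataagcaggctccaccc

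Of the 29 measured genes, 20 had an upstream sequence in the RefSeq table, and 7 of these (35.0%) held AGATAA within 250 bases before a start. Across the 27025 genes with an upstream sequence, 11.4% did. The 7 were Epb42, Epor, Icam4, Kel, Rhd, Tal1 and Trim10. The Epor copy began 54 bases before the start and the Kel copy 56 bases before it. CCNCNCCC was held by 13 of the 20 (65.0%), against 48.5% of all genes, so that box is common in any such window. A gene was counted where any of its upstream sequences held the letters. Tal1 is among the 13 through its sequence that is not shown, as the one shown holds 0 copies. These are matches of letters and not measured binding.

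All 4 regulators were lower on both 13del-tg arrays. Klf1, which encodes the factor that activates adult globin and many red cell membrane genes, had intensities of 150.9 and 325.3 in 13del-tg 2 and 3, against 1322.5 and 1327.3 in controls 2 and 3, and 824.6 on the shared array. The controls lay within a narrow range and the shared array stood between the groups. The Klf1 log2 difference was -2.49 (SE 0.35), which is 5.62-fold lower in 13del-tg, with an unadjusted p of 0.000194 and a limma adjusted p of 0.104. Nfe2, a subunit of the factor that binds globin enhancers, had 90.7 and 264.4 in 13del-tg 2 and 3, against 581.5 and 791.2 in controls 2 and 3, and 526.4 on the shared array. The Nfe2 log2 difference was -2.01 (SE 0.46). Gata1, the main GATA factor of red cells and megakaryocytes, had 123.1 and 243 in 13del-tg 2 and 3, against 500.2 and 763.4 in controls 2 and 3, and 289.1 on the shared array. Its shared value stood just above the higher 13del-tg array. Tal1, the helix-loop-helix partner of GATA1, had 298.9 and 416.8 in 13del-tg 2 and 3, against 796.9 and 1110 in controls 2 and 3, and 687.1 on the shared array. The log2 differences were -1.74 (SE 0.38) for Gata1 and -1.37 (SE 0.28) for Tal1.

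Both receptors were lower as well, by different amounts. Epor, the erythropoietin receptor, had intensities of 111.1 and 201.8 in 13del-tg 2 and 3, against 376.7 and 460 in controls 2 and 3, and 217.5 on the shared array. The log2 difference for Epor was -1.38 (SE 0.34). Tfrc, the transferrin receptor that brings iron into erythroblasts and into other dividing cells, had 4138.4 and 3937.2 in 13del-tg 2 and 3, against 7722 and 5614.2 in controls 2 and 3. Its difference was smaller, -0.70 (SE 0.21), and the shared array, at 7166.3, lay within the controls. All 3 kept Tfrc probe sets that are not array controls were lower on both 13del-tg arrays, with log2 differences of -0.70, -0.52 and -0.41.

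Membrane and skeleton genes split into lower and unseparated ones. Slc4a1, the anion exchanger that anchors the skeleton, had intensities of 575.1 and 1660.2 in 13del-tg 2 and 3, against 3825.6 and 4793.4 in controls 2 and 3, and 2190.2 on the shared array. Its log2 difference was -2.11 (SE 0.45, unadjusted p = 0.0022, limma adjusted p = 0.387), and a second bright probe set gave -2.30. Epb42, which ties the exchanger to ankyrin, had 15.3 and 36.8 in 13del-tg 2 and 3, against 245.8 and 200.3 in controls 2 and 3, and 179.7 on the shared array. Both 13del-tg signals lay under the level of the low-signal filter, 61.9, so the Epb42 gene was kept because of its other arrays. Epb42 is counted among the genes lower on both 13del-tg arrays, but the size of its difference is uncertain. Its log2 difference of -2.55 (SE 0.43) depends on the pseudocount, the constant added before the logarithm, being -3.17 with 1 and -1.68 with 64. A second kept Epb42 probe set, nearly as bright, gave -1.73 with no overlap, and the mean of both was -2.14. Its 13del-tg signals, 33.8 and 50.2 in 13del-tg 2 and 3, also lay under the filter level. Dmtn, which encodes the actin-bundling protein dematin, had 185.8 and 270.8 in 13del-tg 2 and 3, against 782.4 and 885.1 in controls 2 and 3, and 585.7 on the shared array. Dmtn had a log2 difference of -1.82 (SE 0.27, unadjusted p = 0.000262, limma adjusted p = 0.129). A second kept Dmtn probe set gave -0.24 with overlapping groups, and the mean of both was -1.03.

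Add2, the adducin chain of red cells and brain, had 95.4 and 175.4 in 13del-tg 2 and 3, against 225.1 and 416.4 in controls 2 and 3, and 166.1 on the shared array, a log2 difference of -1.14 (SE 0.41). Gypc, a glycophorin at the actin junctions, had 827 and 811.1 in 13del-tg 2 and 3, against 1267.7 and 1003 in controls 2 and 3, and 988.3 on the shared array. The Gypc groups did not overlap, but its difference of -0.45 (SE 0.22) had an unadjusted p of 0.075. Add2 was lower on both 13del-tg arrays with each of its 4 other probe sets too, of which 3 passed the filter.

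The brightest probe sets of Ank1, Tmod1 and Sptb did not follow the other erythroid genes. Ank1, the red cell ankyrin, which also has a short form in the sarcoplasmic reticulum of muscle, had intensities of 1644.6 and 1029.6 in 13del-tg 2 and 3, against 1403.3 and 1046.7 in controls 2 and 3. Tmod1, the cap of actin filaments in the red cell skeleton and in the sarcomere, had 2107.1 and 860.4 in 13del-tg 2 and 3, against 1392.6 and 888.8 in controls 2 and 3. Sptb, the spectrin chain of red cells, also made in muscle, had 490.9 and 191.4 in 13del-tg 2 and 3, against 266.6 and 247.1 in controls 2 and 3. The groups overlapped for these 3 genes, and the shared array was above all 4 other arrays, at 2177.3, 2817.2 and 556.9 in the same order. Their log2 differences were 0.10 (SE 0.28), 0.27 (SE 0.43) and 0.25 (SE 0.43), and each turned negative when the shared array was counted as a control or when 13del-tg 2 was left out (Ank1 -0.18 and -0.23, Tmod1 -0.17 and -0.37, Sptb -0.11 and -0.39).

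A second Sptb probe set gave 197.4 and 201.4 in 13del-tg 2 and 3, against 399.4 and 521.2 in controls 2 and 3, and 214.1 on the shared array, a log2 difference of -1.13 with no overlap. The Sptb probe sets thus disagreed in sign, which held for no other of the 10 genes with several kept probe sets. A second Ank1 probe set gave 932.8 and 519.2 in 13del-tg 2 and 3, against 506.4 and 197.7 in controls 2 and 3, and 1366.7 on the shared array. Its difference was 1.09, with both 13del-tg arrays above both controls. Skeletal muscle markers varied widely among the arrays. Summed over the 7 muscle markers kept, the intensity was 191041 and 142790 in 13del-tg 2 and 3, against 136615 and 22255.6 in controls 2 and 3, and 164004 on the shared array. Of the 7, 6 had a positive difference and none was at 0, where 5302 of the 12859 genes tested had a positive one. None of the 7 passed at an unadjusted limma p under 0.05 (5.31% of all genes lower, 1.49% higher). Acta1, the actin of skeletal muscle, had 43939.4 and 39337.9 in 13del-tg 2 and 3, against 34652.6 and 8600.3 in controls 2 and 3. The part of muscle RNA in the Ank1, Tmod1 and Sptb values was not tested.

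**Figure D2:**
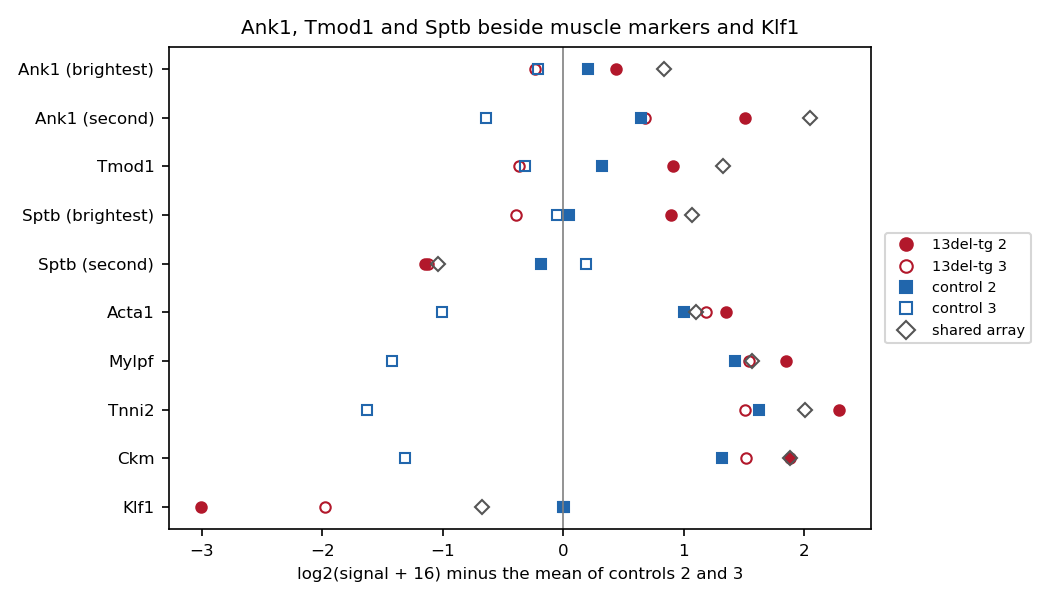
log2(signal + 16) minus the mean of controls 2 and 3 for probe sets of Ank1, Tmod1 and Sptb, the 4 brightest muscle markers and Klf1. Circles are 13del-tg 2 (filled) and 3 (open), squares control 2 (filled) and 3 (open), and diamonds the shared array, which is the highest array for both Ank1 probe sets, Tmod1 and the brighter Sptb probe set, while 13del-tg 2 and 3 are lowest for Klf1.

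All 6 blood group and other surface genes were lower on both 13del-tg arrays. Ermap, an immunoglobulin-family protein that carries the Scianna blood group in humans, had intensities of 121.9 and 353.9 in 13del-tg 2 and 3, against 1528.3 and 1466.8 in controls 2 and 3, and 897.9 on the shared array. Its log2 difference was -2.74 (SE 0.44, unadjusted p = 0.000413, limma adjusted p = 0.161), or 6.70-fold lower in 13del-tg. Rhag, the Rh-associated gas channel, had 75.9 and 326.2 in 13del-tg 2 and 3, against 877.5 and 866.6 in controls 2 and 3, and 621.2 on the shared array. The 13del-tg arrays themselves differed 4.30-fold for Rhag, and its log2 difference was -2.32 (SE 0.56). Rhd, its partner in the Rh complex, had 173 and 467 in 13del-tg 2 and 3, against 889.4 and 1021.1 in controls 2 and 3, with 459.8 on the shared array, inside the 13del-tg range.

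Kel, the surface protease of the Kell blood group, had intensities of 107.5 and 237.8 in 13del-tg 2 and 3, against 644.6 and 866.9 in controls 2 and 3, and 383.1 on the shared array. Its log2 difference was -2.11 (SE 0.38, unadjusted p = 0.000897, limma adjusted p = 0.256). Cldn13, a claudin expressed in the red cell lineage of mice, had 134.5 and 329.1 in 13del-tg 2 and 3, against 822.4 and 946.8 in controls 2 and 3, and 441.7 on the shared array. Icam4, an adhesion molecule through which erythroblasts bind macrophages, had 96.2 and 373.1 in 13del-tg 2 and 3, against 510.4 and 532 in controls 2 and 3, and 218.2 on the shared array. The groups of each of these genes were apart, and 13del-tg 2 was the lowest of the 5 arrays. The log2 differences were -1.98 (SE 0.40) for Cldn13, -1.68 (SE 0.43) for Rhd and -1.36 (SE 0.54) for Icam4.

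Among the transport genes the mitochondrial carriers parted. Slc25a37, mitoferrin, which brings iron into erythroblast mitochondria for heme, had 850.2 and 1005 in 13del-tg 2 and 3, against 2809.4 and 2615.8 in controls 2 and 3, and 1917.8 on the shared array. The arrays of each group lay close together, and its log2 difference of -1.54 (SE 0.20) had the smallest p of the 29 genes (unadjusted p = 0.000111, limma adjusted p = 0.0953). Slc25a38, the glycine carrier that feeds heme synthesis, had 185 and 257 in 13del-tg 2 and 3, against 221.5 and 307.8 in controls 2 and 3, and 293.4 on the shared array. Its groups overlapped, with a difference of -0.24 (SE 0.31). Tspo2, an erythroid relative of the cholesterol-binding translocator protein, had 80.6 and 138.9 in 13del-tg 2 and 3, against 367.8 and 357.5 in controls 2 and 3, and 278.4 on the shared array, a difference of -1.63 (SE 0.33).

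The enzymes also differed in size. Car1, a carbonic anhydrase of the red cell cytoplasm, had intensities of 203.6 and 988.9 in 13del-tg 2 and 3, against 1158.7 and 1917.5 in controls 2 and 3, and 647.1 on the shared array. The 13del-tg arrays differed 4.86-fold, and the log2 difference of -1.68 (SE 0.65) had an unadjusted p of 0.0359. Bpgm, which makes the bisphosphoglycerate that loosens oxygen from hemoglobin, had 1372.7 and 2096.2 in 13del-tg 2 and 3, against 2790.5 and 2850.4 in controls 2 and 3, and 2647.5 on the shared array. The Bpgm difference was -0.73 (SE 0.24). All 3 Bpgm probe sets were negative, and the groups overlapped for 1 of them.

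The genes grouped as maturation factors were lower too. Hemgn, a nuclear protein of blood progenitors and erythroblasts, had intensities of 259.7 and 1027 in 13del-tg 2 and 3, against 2445.4 and 2501.2 in controls 2 and 3, and 1386.3 on the shared array. The difference for Hemgn was -2.21 (SE 0.55). Trim10, a ring-finger protein needed for terminal erythroid differentiation, had 161 and 370 in 13del-tg 2 and 3, against 750.3 and 1025 in controls 2 and 3, and 695.3 on the shared array. Tspan33, a tetraspanin of erythroid progenitors, had 307.1 and 941 in 13del-tg 2 and 3, against 1590.9 and 2129.1 in controls 2 and 3, and 1053.2 on the shared array. The log2 differences were -1.77 (SE 0.39) for Trim10 and -1.74 (SE 0.48) for Tspan33, and all 4 Tspan33 probe sets were lower on both 13del-tg arrays. Xpo7, a nuclear exporter active in maturing erythroblasts and made in other tissues, had 2642.5 and 2792.9 in 13del-tg 2 and 3, against 3824.5 and 3895.1 in controls 2 and 3, and 3327.9 on the shared array. Its difference was small, -0.50 (SE 0.18), with arrays of each group close together.

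**Figure D3:**
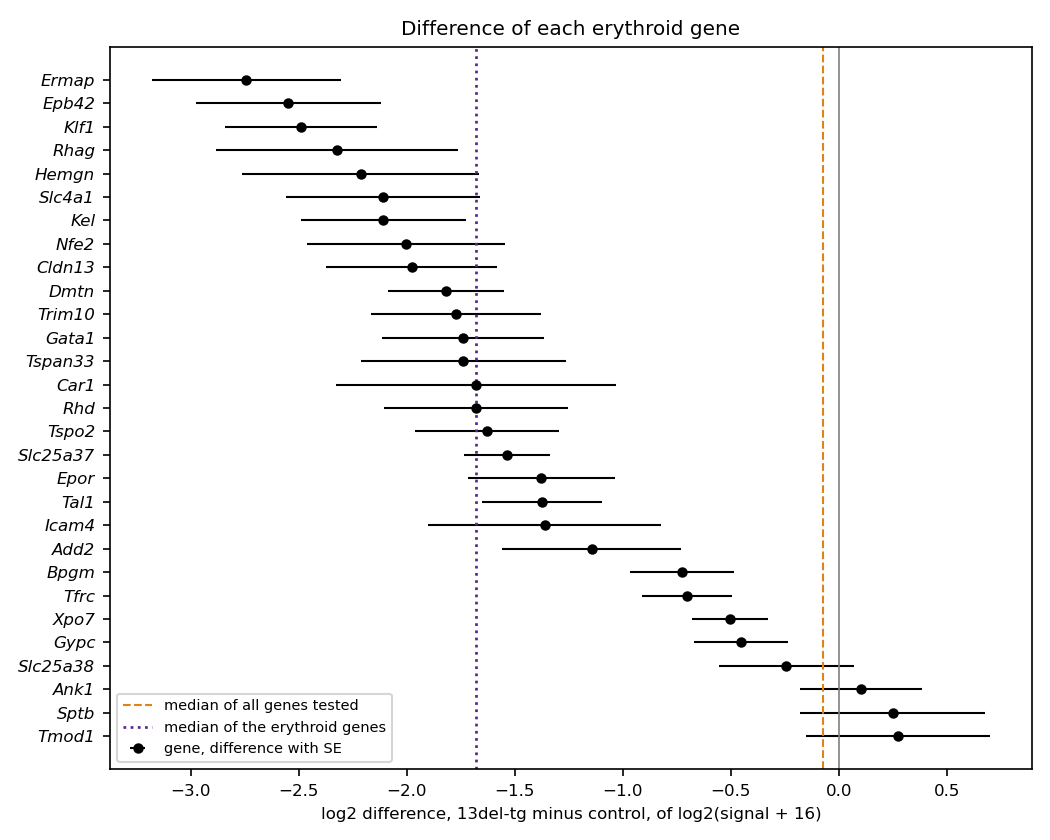
Log2 difference, 13del-tg minus control, of log2(signal + 16) for the 29 erythroid genes, with the limma standard error as bars (n = 2 each). The dotted line is the median of these genes, -1.68, and the dashed line the median of all genes tested, -0.074, and 26 points lie below 0.

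The 13del-tg arrays were not alike. 13del-tg 2 was below 13del-tg 3 for 24 of the 29 genes, where it was for 46.8% of all genes, and was the lowest of the 5 arrays for the same number, 24 (18.7% of all genes). The median of the group, relative to the mean of controls 2 and 3, was -2.19 in 13del-tg 2 and -1.14 in 13del-tg 3, against -0.029 in control 2 and 0.029 in control 3, on the log2(signal + 16) scale. With 13del-tg 2 left out, 28 of the 29 genes were below both controls, where 44.9% of all genes were. The log2 difference then moved nearer to 0 by over 1.5 times for 11 genes, among them Icam4 (-0.47), Car1 (-0.58), Tspan33 (-0.96), Rhd (-1.004) and Hemgn (-1.25). The others were Nfe2 (-1.31), Slc4a1 (-1.36), Rhag (-1.38), Add2 (-0.75), Bpgm (-0.43) and Slc25a38 (-0.023). Without 13del-tg 3, Car1 was at -2.78 and Icam4 at -2.26. Among the separated genes the controls moved 1 each by as much, Gypc to -0.29 without control 2 and Add2 to -0.72 without control 3. The shared array's median was -0.50, and it stood between the groups for 20 of the 29 genes (7.65% of all genes), within the 13del-tg range for 4, within the controls for 2 and above all 4 arrays for 3.

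Further red cell genes were taken from lists chosen by name, and they varied in size and direction. Over all genes, 58.8% were negative and 26.3% had both 13del-tg arrays below both controls. By limma, 5.31% of all genes were lower and 1.49% higher at an unadjusted p under 0.05. Of 12 other erythroid regulators all 12 had a negative difference, 8 had both 13del-tg arrays below both controls and 6 were lower at an unadjusted p under 0.05, with 0 higher. Their median difference was -0.55. The brightest of them were Foxo3 (-0.39, SE 0.23), Lmo2, a partner of TAL1 (-0.45, SE 0.22), Ldb1, which joins distant GATA1 sites (-0.43, SE 0.29), and Myb, a factor of progenitors (-1.74, SE 0.38). Of 20 kept genes of red cell proteins outside the 29, 15 were negative, 9 were lower and 1 higher at an unadjusted p under 0.05, with a median of -0.54. Their brightest were Tpm1, a tropomyosin of many cell types including muscle (0.78, SE 0.32), the surface antigen gene Cd24a (-1.20, SE 0.36), the peroxiredoxin gene Prdx2 (-0.20, SE 0.19) and Cd47, a marker of self (-0.087, SE 0.22).

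All 7 kept heme synthesis genes were negative (58.8% of all genes), with a median of -0.85. By limma 6 of the 7 were lower at an unadjusted p under 0.05 (5.31% of all genes). Alas2, the first enzyme of heme synthesis in red cells, had intensities of 2237.5 and 1907.3 in 13del-tg 2 and 3, against 6083.2 and 7403.5 in controls 2 and 3, and 4203.3 on the shared array. Its log2 difference was -1.69 (SE 0.20, limma adjusted p = 0.0658). Alad, the next enzyme, had -1.05 (SE 0.19), Fech, which inserts the iron, -0.64 (SE 0.20), and Urod -0.33 (SE 0.34). Of the globin genes 2 were kept. Hbb-b1, Hbb-bs and Hbb-bt had no probe set annotated with that symbol alone, and Hba-a1 did not pass the filter. The 2 kept genes thus do not stand for the globins as a whole. Hbb-b2 had -1.19 (SE 0.30) and Hba-a2 0.13 (SE 0.31), and probes of such near-identical genes may share signal.

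Markers of other blood cells were partly lower on the same arrays. Over all genes, 58.8% had a negative difference and 5.31% were lower at an unadjusted limma p under 0.05. Of 9 kept B cell markers all 9 were negative, 6 were lower at an unadjusted p under 0.05. Their median relative to the controls was -1.97 in 13del-tg 2 and -0.69 in 13del-tg 3. Their summed intensity was 2857.4 and 5767.9 in 13del-tg 2 and 3, against 9576.8 and 10216.7 in controls 2 and 3. Vpreb1, part of the pre-B cell receptor, had a log2 difference of -2.08 (SE 0.67). Of 11 neutrophil markers all 11 were negative and 1 was lower at an unadjusted p under 0.05, but the median was -1.59 in 13del-tg 2 and 0.15 in 13del-tg 3, against -0.39 in control 2 and 0.39 in control 3. The neutrophil sums were 19183.8 and 60285.2 in 13del-tg 2 and 3, against 44857.2 and 64794.6 in controls 2 and 3, so the groups overlapped. Of 6 kept megakaryocyte and platelet markers all 6 were negative, 1 at an unadjusted p under 0.05, with medians of -1.13 in 13del-tg 2 and -0.15 in 13del-tg 3. Their sums were 3745.6 and 7685.4 in 13del-tg 2 and 3, against 8497.1 and 8192.6 in controls 2 and 3. The B cell and megakaryocyte sums were thus lower on both 13del-tg arrays, while the neutrophil sum of 13del-tg 3 lay within the controls. Gene by gene, both 13del-tg arrays were below both controls for 6 of the 9 B cell markers. That held for 3 of the 6 megakaryocyte and 2 of the 11 neutrophil markers, for 25 of the 29 erythroid genes and for 26.3% of all genes. Differences between these lists were not tested.

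Macrophage, endothelial and osteoblast markers had medians near 0. Of 8 macrophage markers 4 were negative and 4 positive (median 0.0069). Their sums were 22626.8 and 25173.4 in 13del-tg 2 and 3, against 26112.9 and 26483.9 in controls 2 and 3. The macrophage sum was thus also lower on both 13del-tg arrays. Both 13del-tg arrays were below both controls for 2 of the 8 macrophage markers (26.3% of all genes). Of 5 endothelial markers 4 were negative (median -0.21), with sums of 6843.2 and 5121.6 in 13del-tg 2 and 3, against 6680.2 and 5922.7 in controls 2 and 3. Of 5 kept osteoblast markers 2 were negative (median 0.087), with sums of 119888 and 130958 in 13del-tg 2 and 3, against 107148 and 118495 in controls 2 and 3, and Col1a2, a bone collagen chain, was bright on every array, so the labelled bone tissue was present. No marker of these 3 lists passed at an unadjusted limma p under 0.05 in either direction. All 6 chondrocyte markers were negative (58.8% of all genes), with a median of -1.58. By limma 1 of the 6 was lower at an unadjusted p under 0.05 (5.31% of all genes). The chondrocyte sums were 9487.4 and 3291.3 in 13del-tg 2 and 3, against 26697.3 and 7170.2 in controls 2 and 3. The pineal and photoreceptor markers lay near the filter level on both 13del-tg arrays, with sums of 269.1 and 289.7 in 13del-tg 2 and 3, against 4664.4 and 9870.9 in controls 2 and 3, and 450 on the shared array. For 4 of the 6 both 13del-tg signals lay under the filter level, so they were kept because of the controls, and their differences are not counted as results. Markers of other tissues thus varied among the arrays, and their part in the erythroid differences was not tested.

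**Figure D4:**
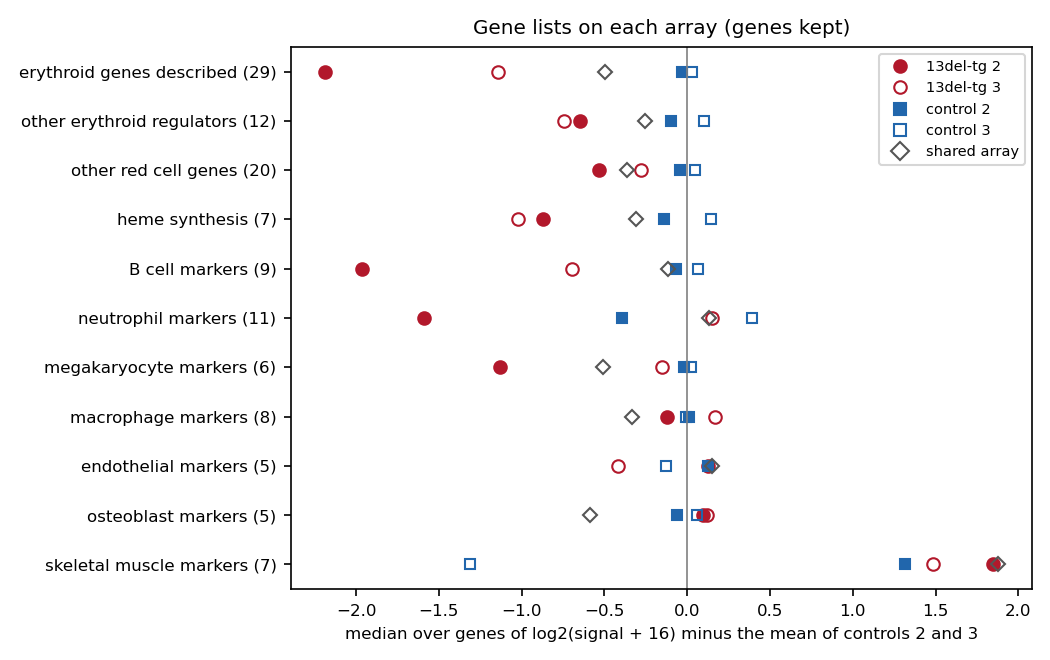
Median over the genes of each list of log2(signal + 16) minus the mean of controls 2 and 3, with the number of genes kept in brackets. Circles are 13del-tg 2 (filled) and 3 (open), squares control 2 (filled) and 3 (open), and diamonds the shared array; the 29 erythroid genes lie at -2.19 and -1.14 in 13del-tg 2 and 3, and the neutrophil markers at -1.59 and 0.15.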

How the data were processed

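Total RNA from parietal bone was amplified to biotin-labelled antisense RNA and hybridised to 1 mouse array per sample, per the labels' protocols. The authors deposited 1 intensity per probe set and sample on a linear scale, made with MAS5 per the submitters' processing notes. The MAS5 version is not given in the sources used here. MAS5 subtracts background within each array, and its low signals are noisy. No detection calls or scan dates were used here.

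Intensities were used as log2(signal + 16) as deposited, without renormalizing. After 64 array control probe sets had been dropped, those with a mean at or above the 40th percentile over the 5 distinct arrays (6.28, a signal of 61.9) were kept, and the brightest probe set with 1 symbol in the platform annotation stood for each gene, which gave 12859 genes. All 29 measured members passed this filter, and all 29 symbols matched RefSeq by gene number. Differences were tested with limma 3.58.1 (eBayes with trend, R 4.3.3), two-sided, and p-values were adjusted over the tested genes by Benjamini and Hochberg's method. The fit had 2 residual and 5.01 prior degrees of freedom. It was run on simulated data drawn from the fit's own model, which cannot test that model against these arrays. Adjusted p-values are limma's throughout. The limma p-values set each difference against a spread estimated from these arrays and, through the prior, from all genes tested.

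Members, lists and tests were chosen with earlier results of these data known. Named were all members, Col10a1 and up to 4 of the brightest genes of the other lists described, and other exceptions are stated. The alternatives were the pseudocount, filter, normalization, probe set rule, eBayes options, uses of the shared array, leaving out each array, and a replicate block.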

Additional observations from a re-analysis of the deposited data

Results flagged for a closer look

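On the shared array, which was outside the comparison, 3 of the erythroid genes had a signal above both controls. Ank1 had 2177.3, against 1403.3 and 1046.7 in controls 2 and 3. Tmod1 had 2817.2, against 1392.6 and 888.8 in controls 2 and 3. Sptb had 556.9 with its brightest probe set, against 266.6 and 247.1 in controls 2 and 3.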

How the results depend on the processing

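Of 492 values of single erythroid genes over 17 alternatives, 448 kept both their direction and their side of the adjusted threshold, 35 passed it and 9 turned their sign, all 9 in Ank1, Sptb or Tmod1. Counted as a control, the shared array turned Ank1 to -0.18, Sptb to -0.11 and Tmod1 to -0.17, and the mean of kept probe sets turned Sptb to -0.44. When 1 array was left out, which leaves 1 array in a group that is assumed to vary like the other, Ank1 ran from -0.23 to 0.44, Sptb from -0.39 to 0.89 and Tmod1 from -0.37 to 0.91. Over these fits the erythroid median ran from -2.19 to -1.14. Without 13del-tg 2, 28 erythroid genes had the remaining 13del-tg array below both controls (44.9% of all genes). Without 13del-tg 3, 26 did (41.1% of all genes). With a control left out, the 13del-tg arrays could be set against 1 control only. Both were below it for 26 erythroid genes without control 2 (44.1% of all genes) and for 25 without control 3 (38.7%). Without 13del-tg 3, the log2 difference was 0.89 for Sptb and 0.91 for Tmod1. Without control 2, 50 of all genes were lower and 182 higher at the adjusted threshold, and 8 of the lower ones were erythroid (Dmtn, Ermap, Gata1, Kel, Klf1, Slc25a37, Slc4a1 and Tal1). Ermap and Klf1 passed with arrays centred on their median, which put the median difference over the tested genes at 0.11, and Klf1 and Slc25a37 with robust eBayes. With the shared array under both labels the erythroid median was -1.12. That array then lies in both groups, so 0 genes were below both controls. Of the 29 erythroid genes, 18 were lower at an unadjusted limma p under 0.05 (1.36% of all genes).

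Over all genes, 8 passed an adjusted p under 0.05. The number was 2 with a pseudocount of 1, a 60th percentile filter or quantile normalization, 5 with a pseudocount of 64, 1 without a filter, without the trend or with the shared array as control only, 30 with arrays centred on their median, 25 with robust eBayes, and 0 with the shared array under both labels. It ran from 1 (without 13del-tg 3) to 232 (without control 2) when 1 array was left out. The cause was not tested. The replicate numbers are shared by the genotypes, but nothing says that they pair animals, and with 2 pairs the correlation of the deviations, 0.27, cannot settle it. With a replicate block, which leaves 1 residual degree of freedom, 609 genes passed, 23 of them erythroid, and the median stayed at -1.68. The number of arrays and the signal near background limit dim genes such as Epb42.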

Other observations

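Further genes of the red cell lists are named here after their values had been seen. Gfi1b, a repressor needed for red cell and platelet formation, had intensities of 122.3 and 188.6 in 13del-tg 2 and 3, against 640.2 and 744.4 in controls 2 and 3, and 290.1 on the shared array. Its log2 difference was -2.07 (SE 0.29, unadjusted p = 0.000193, limma adjusted p = 0.104). Tmcc2, a membrane protein gene, had 654 and 750.9 in 13del-tg 2 and 3, against 1663.5 and 2507.2 in controls 2 and 3, and 1599.7 on the shared array, a difference of -1.52 (SE 0.25). The 13del-tg arrays differed 1.54-fold for Gfi1b and 1.15-fold for Tmcc2, against 4.30-fold for Rhag and 4.86-fold for Car1. Kit, the stem cell factor receptor of early progenitors and mast cells, had 173.6 and 118.8 in 13del-tg 2 and 3, against 187.7 and 139.7 in controls 2 and 3, so its groups overlapped.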
